A study of Homo sapiens with 4 samples.

Results

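Eukaryotic translation initiation factors bring the ribosome to an mRNA and set it on the start codon. The eIF4F proteins bind the mRNA cap, eIF2 carries the initiator tRNA and is recharged with GTP by eIF2B, eIF3 holds the small ribosomal subunit, and the EIF4EBP proteins hold the cap-binding protein eIF4E away from its scaffold until mTORC1 phosphorylates them. Growth factor receptors act on this machinery through mTORC1 and through the MNK and RSK kinases downstream of ERK, mostly by phosphorylating proteins, which mRNA counts do not measure.

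The genes described here are the rows of the count table whose symbol begins with EIF and a digit from 1 to 6. EIF2AK2 and EIF2AK3, which answer to viral RNA and to stress of the endoplasmic reticulum, were left out by the rule. That left 54 genes of the 20372 in the table. Of these, 51 had at least 10 reads summed over the 4 libraries and 50 passed the filter on low counts. The 3 with fewer than 10 reads were EIF4E1B, EIF4EBP3 and EIF1AY, and EIF3CL, with 19 reads in all, was measured and not tested.

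The cells were TPC1, a human papillary thyroid cancer line whose CCDC6-RET fusion makes an active RET kinase. In the BLU6864 group, 2 libraries came from cells given the RET inhibitor BLU6864 for 6 h, and in the DMSO group 2 libraries came from cells given the solvent. The dose is uncertain, 100 micromolar by the labels and nanomolar in the study's text. The DMSO columns carry 24 h in their names and the labels give these samples no time, so the drug and the time in culture cannot be told apart. Only the titles of the BLU6864 samples are marked as a re-analysis, so this mark coincides with the group. TPC1 is a single cell line, and no source says that the libraries came from separate cultures, so the p-values measure the spread between libraries, which may be technical.

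Library totals ranged from 23750509 to 28305571 reads. SPRY2, a feedback inhibitor transcribed after ERK signaling, was at 419 and 436 normalized counts in the BLU6864 libraries and at 4030.1 and 4365 in the DMSO libraries. The BLU6864 labels and this ERK target thus went together. Of the thyroid markers, PAX8, FOXE1 and TG were measured and all 3 fell (log2 fold change -0.36, -0.48 and -0.85, edgeR adjusted p = 0.0256, 0.00554 and 1.8e-05), NKX2-1 and TSHR were at 0 reads, and SLC5A5 had fewer than 10. Of the epithelial keratins, KRT18 fell (log2 fold change -1.02, edgeR adjusted p = 3.5e-08), and KRT8 and KRT19 were not called. The epithelial genes EPCAM and CDH1 had few reads and were not tested, with 11 and 6 reads after BLU6864 against 6 and 2 in DMSO for EPCAM, and 8 and 3 against 0 and 0 for CDH1. Among markers of other cell types, the T cell gene CD3E was at 0 and the leukocyte gene PTPRC had 10 reads in all. The fibroblast-associated COL1A1 was at 229 and 222 normalized counts after BLU6864 against 155 and 158 in DMSO, and PDGFRB at 318 and 349 against 232 and 189. Both rose (edgeR adjusted p = 0.00483 and 4.6e-04). The part of these marker changes in the results below was not tested. In bulk RNA, fewer cells of a kind and less RNA per cell cannot be told apart, and the scaling hides any change in total mRNA.

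More initiation factor genes fell than rose after RET inhibition. By edgeR's quasi-likelihood test with Benjamini-Hochberg adjustment over 12696 genes, called at an adjusted p below 0.05, 17 of the 50 tested genes were lower, 1 was higher and 32 were not called. Over all genes tested, 22.0% were called lower, 20.3% higher and 42.2% in either direction. The 34.0% of initiation factor genes that were lower stood above the share of all genes, and the share that was higher, 1 of 50, stood below it. The excess of lower calls was not kept throughout, since without BLU6864 replicate 2 it turned round, with 4 of the 50 initiation factor genes lower against 11.6% of all genes. Their median log2 fold change was -0.15, within a range from -0.74 to 0.48, against 0.01 over all genes.

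The changes were small. With the study's own kind of threshold, a log2 fold change beyond 0.5 with an unadjusted p below 0.01, 4 initiation factor genes were lower and 0 were higher, where 12.5% of all genes were lower and 11.0% higher, so by that threshold the share of initiation factor genes that fell (4 of 50) was below that of all genes. These 4 were EIF5B, EIF1AD, EIF2S1 and EIF3B. Both BLU6864 libraries lay below both DMSO libraries for 29 of the 50 genes and above them for 7, where 35.7% and 35.1% of all genes did so. EIF5B, EIF1AD, EIF2S1 and EIF4EBP1 were called lower under each of the 8 other fits of the data, among them the 4 that leave out a library. The other 14 calls were lost in at least 1 of these fits, which are named beside each gene.

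**Figure D1:**
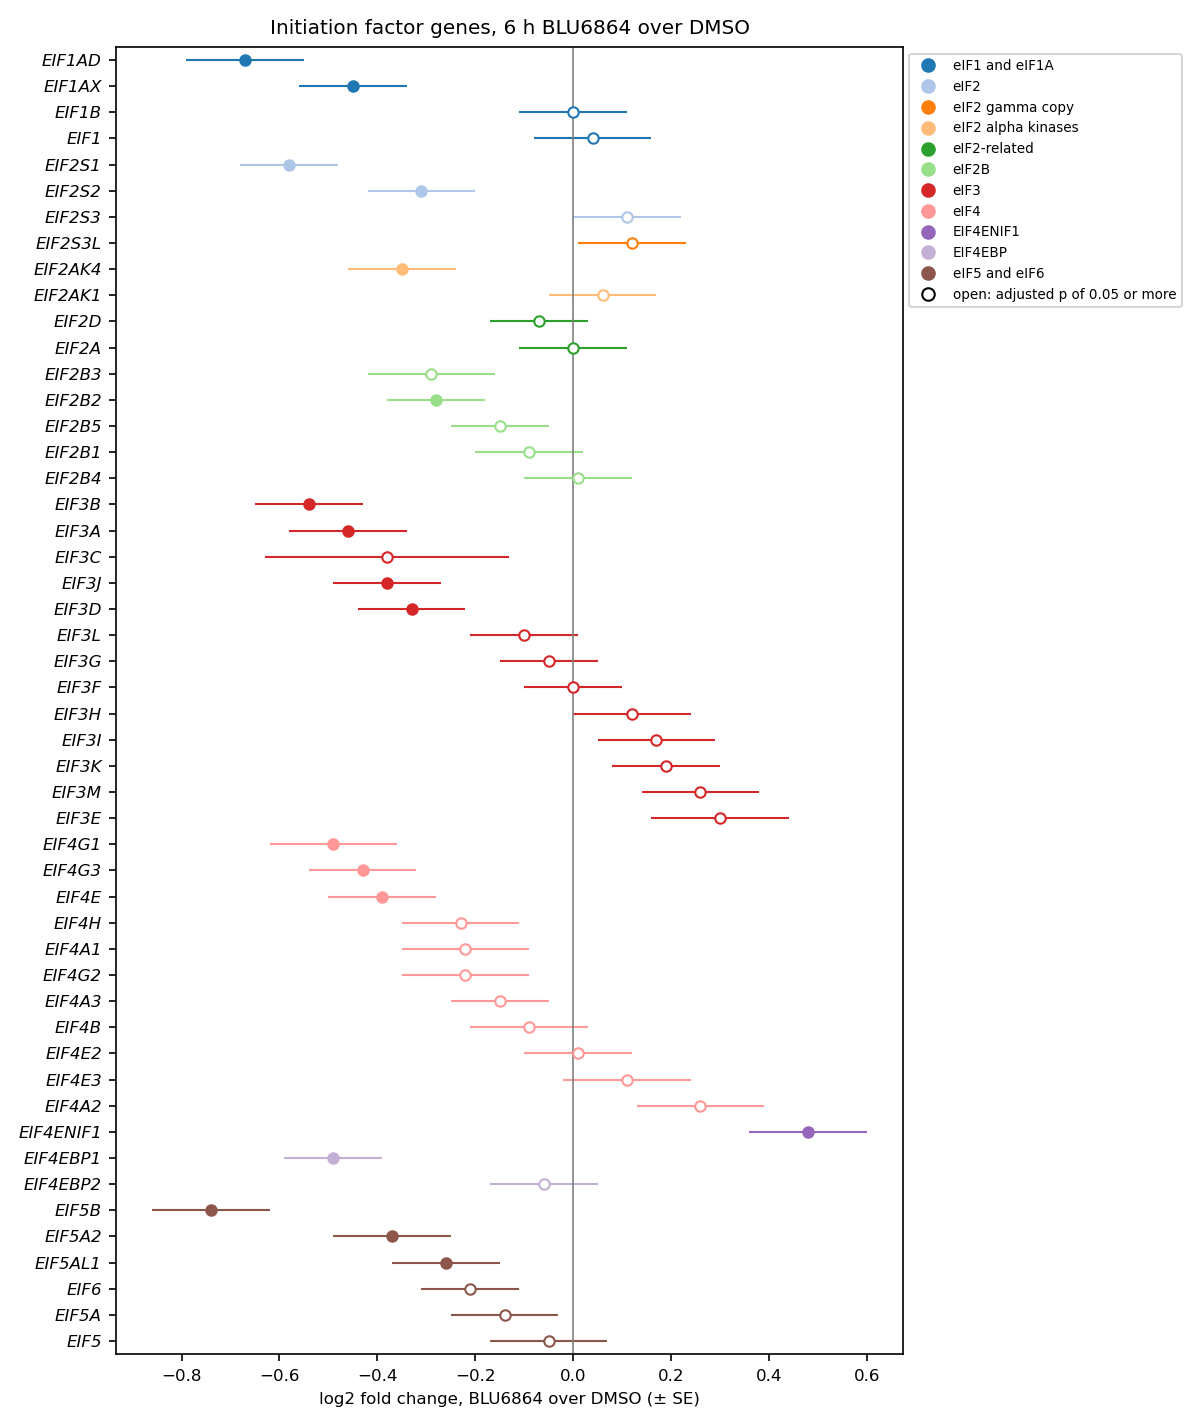
Log2 fold change of the 50 tested initiation factor genes, BLU6864 over DMSO, with its standard error as a bar, from edgeR over 2 libraries a group. Filled points passed an adjusted p of 0.05 and open points did not; 17 filled points lie left of 0 and 1, EIF4ENIF1, lies right of it.

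Several of the genes that were not called lower share a feature at their transcription start. Many mRNAs of the translation machinery begin with a C followed by an unbroken run of pyrimidines, the 5′ terminal oligopyrimidine (TOP) motif, which mTORC1 uses to control their translation. RefSeq promoter sequences (GRCh38.p14) were used for 45 of the 54 genes, EIF2S3L under its newer name EIF2S3B. None was found for EIF2AK1, EIF2S2, EIF3A, EIF3CL, EIF3G and EIF3L. EIF3E, EIF3H and EIF4EBP1 were not looked up, since the chromosome that holds them was left out for initiation factor genes. Their log2 fold changes (0.30, 0.12 and -0.49) thus enter neither of the medians by kind of start given below. Of the 45, 10 (22.2%) had an annotated start at a C followed by at least 4 pyrimidines (C or T), against 6.31% of the 14223 genes of the table with a promoter entry, each counted by any of its promoters. No chromosome was left out of the share over all genes, so the shares rest on unlike rules. The motif was read on the transcribed strand at the annotated base only. The starts of these 10 genes are shown as 10 bases before the annotated start and 20 from it, 5′ to 3′, with the start base and the pyrimidines that follow it in capitals:
EIF2S3, chrX:24054946-24054975, plus strand: gatttccttcCTCTTTTggcaacatggcgg
EIF2S3L, chr12:10505880-10505909, plus strand: gactttcttcCTCTTTTggcaacatggcgg
EIF2A, chr3:150546777-150546806, plus strand: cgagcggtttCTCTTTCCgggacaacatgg
EIF2D, chr1:206612446-206612475, minus strand: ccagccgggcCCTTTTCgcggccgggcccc
EIF3D, chr22:36529147-36529176, minus strand: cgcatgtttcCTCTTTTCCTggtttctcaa
EIF3F, chr11:7987327-7987356, plus strand: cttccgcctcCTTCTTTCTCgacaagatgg
EIF3K, chr19:38619178-38619207, plus strand: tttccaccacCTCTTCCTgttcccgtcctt
EIF3M, chr11:32583821-32583850, plus strand: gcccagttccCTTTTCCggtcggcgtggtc
EIF4A2, chr3:186783567-186783596, plus strand: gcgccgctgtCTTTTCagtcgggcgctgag
EIF4B, chr12:53006446-53006475, plus strand: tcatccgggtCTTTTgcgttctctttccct

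The starts of 5 of the 13 genes with another start that fell are given in the same form. They were picked by hand for their place in different factors, and 18 uncalled genes also have another start:
EIF2S1, chr14:67360318-67360347, plus strand: gaggttccgcATgcgcggtggagtgagcga
EIF3B, chr7:2354817-2354846, plus strand: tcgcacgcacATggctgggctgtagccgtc
EIF4E, chr4:98929114-98929143, minus strand: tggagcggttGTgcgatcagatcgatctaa
EIF5B, chr2:99337379-99337408, plus strand: ctgagaactcACaccatatgtgtcctgttc
EIF1AX, chrX:20141819-20141848, minus strand: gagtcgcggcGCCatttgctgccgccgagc

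Of the 10 genes with a pyrimidine start, 1 (EIF3D) was called lower and 0 higher, with a median log2 fold change of 0.05. The 10 hold both EIF2S3 and its partial copy EIF2S3L, whose reads may not be separable. Of the 32 tested genes with another start, 13 were lower and 1 was higher, with a median of -0.23. The medians kept this order in each of the 8 other fits, from 0.03 to 0.13 for the pyrimidine starts and from -0.25 to -0.19 for the others. The 2 DMSO libraries also differed between the kinds of start: the median of DMSO replicate 1 over DMSO replicate 2, on the log2 scale, was -0.13 for the pyrimidine starts and 0.02 for the others, and its part in the difference was not tested. Over all genes, those with a pyrimidine start had 17.4% lower and 22.1% higher calls among 712 tested (median 0.04), and those with other starts 22.3% lower calls and 1778 higher ones among 8905 (median 0.01). The gap between the medians was thus smaller over all genes than among the initiation factors. No test was made of it, and whether TPC1 cells use the annotated starts is not shown by these counts.

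**Figure D2:**
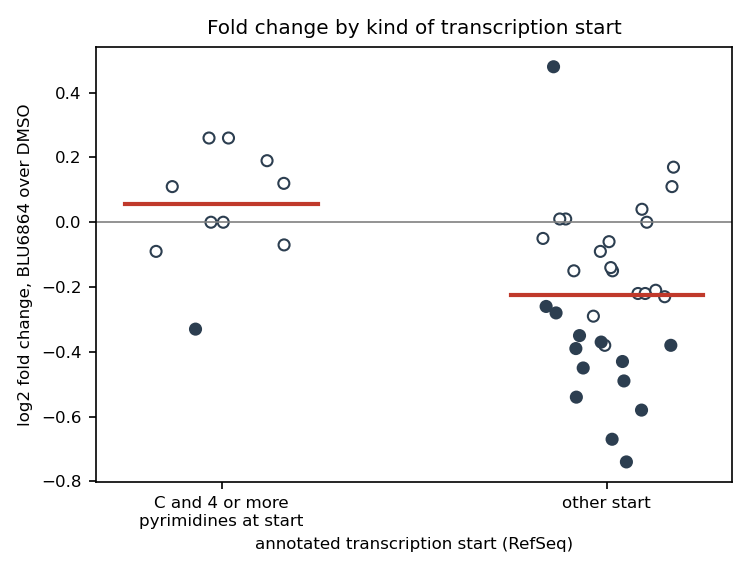
Log2 fold change, BLU6864 over DMSO, of the 10 initiation factor genes with a C and at least 4 pyrimidines at the annotated start and of the 32 with another start; horizontal jitter is for display. Red lines are the medians, 0.05 and -0.23, and filled points passed an adjusted p of 0.05; 1 of 10 points is filled on the left.

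The eIF2 trimer did not move as a unit. EIF2S1 encodes the alpha subunit, the one that stress kinases phosphorylate to slow translation. The libraries of replicates 1 and 2 held 2247 and 2228 normalized counts after BLU6864, against 3235 and 3459.9 with DMSO. Pairs of values below keep this order. Both treated libraries lay well below both controls, and the gap was several times the spread within either group. The means were 2238 ± 13.6 and 3347 ± 159 (SD, n = 2), a 1.49-fold lower level, and the edgeR log2 fold change was -0.58 ± 0.10 (SE) with an adjusted p of 7.2e-05.

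EIF2S2, the beta subunit, was at 1132 and 1168 against 1369 and 1493 normalized counts. The groups did not overlap, with a log2 fold change of -0.31 ± 0.11 (SE) and an edgeR adjusted p of 0.0202, although 22.2% of the 50-base stretches of its transcript also occur in the pseudogene EIF2S2P4. Leaving out BLU6864 replicate 1 or 2 ended the call, at an adjusted p of 0.260 or 0.217, within a range from 2.6e-04 to 0.260 over the 8 other fits. EIF2S3, the gamma subunit that binds GTP and the initiator tRNA, was at 6493 and 6361 against 5699.6 and 6240.4. The treated libraries were slightly above the controls, and the log2 fold change of 0.11 ± 0.11 (SE) was no larger than its error (edgeR adjusted p = 0.449).

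The count of EIF2S1 per count of EIF2S3 within a library was 0.346 and 0.350 after BLU6864 and 0.568 and 0.554 in DMSO. The balance of alpha to gamma mRNA thus differed between the groups by far more than within them. These ratios are not corrected for transcript length and are compared across libraries only. EIF2S3L, a gene nearly identical in part to EIF2S3 on another chromosome, was at 1474 and 1516 against 1301 and 1468. Its log2 fold change of 0.12 ± 0.11 (SE) was close to that of EIF2S3, and 25.2% of the 50-base stretches of its transcript also occur in EIF2S3, so reads of the pair may not be separable.

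EIF2A and EIF2D, which can bring initiator or other tRNAs to the ribosome without eIF2, were not called. EIF2A was at 3739 and 3643 normalized counts against 3453 and 3968, and the groups overlapped. EIF2D had a log2 fold change of -0.07 ± 0.10 (SE).

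Of the eIF2 alpha kinases the rule kept, EIF2AK4 (GCN2, which senses uncharged tRNA) fell. It was at 2512 and 2467 normalized counts after BLU6864 and at 3366 and 2977 in DMSO, a log2 fold change of -0.35 ± 0.11 (SE, edgeR adjusted p = 0.0108). The controls differed from each other by nearly as much as the lower control differed from the treated libraries. Leaving out either BLU6864 library, replicate 1 (adjusted p = 0.155) or replicate 2 (adjusted p = 0.230), ended the call, within a range from 6.9e-05 to 0.230 over the 8 other fits. EIF2AK1 (HRI, the heme-regulated kinase) was at 4411 and 4386 against 4191 and 4278, a log2 fold change of 0.06 ± 0.11 (SE) that was not called.

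Of the 5 genes of eIF2B, the exchange factor for eIF2, 1 fell and 4 were not called, a share near the 22.0% of all genes, with a median log2 fold change of -0.15. EIF2B2, the beta subunit, was at 1166 and 1128 normalized counts against 1407 and 1379.8. The libraries of each group lay close together and the groups were apart, with a log2 fold change of -0.28 ± 0.10 (SE, edgeR adjusted p = 0.0352). DESeq2 did not call it (adjusted p = 0.0617), nor did the fits that left out BLU6864 replicate 1 (adjusted p = 0.236) or replicate 2 (adjusted p = 0.379), within a range from 0.00537 to 0.379 over the 8 other fits.

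EIF2B3, the gamma subunit of the catalytic part, was at 354 and 336 against 388 and 457 (log2 fold change -0.29 ± 0.13 SE, edgeR adjusted p = 0.0773). Its size was like that of EIF2B2, at a lower count and a larger error. Without DMSO replicate 1 it passed as lower (adjusted p = 0.00299), within a range from 0.00299 to 0.420 over the 8 other fits. EIF2B5, the catalytic epsilon subunit, was at 1662 and 1604 against 1875 and 1769. Its log2 fold change of -0.15 ± 0.10 (SE) missed the threshold (edgeR adjusted p = 0.240) and passed it as lower without DMSO replicate 2 (adjusted p = 0.0494, in a range from 0.0494 to 0.693 over the 8 other fits).

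EIF2B1, the alpha subunit, was at 993 and 1012 against 1044 and 1094, and EIF2B4, the delta subunit, at 1046 and 1035 against 1039.8 and 1029. EIF2B4 was level across the 4 libraries, with a log2 fold change of 0.01 ± 0.11 (SE), and EIF2B1 had -0.09 ± 0.11 (SE). The interval in the table for EIF2B5 (hg19 chromosome 3, 183852826 to 184402546) spans other genes, EIF4G1 among them, so its count may hold reads of its neighbours.

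**Figure D3:**
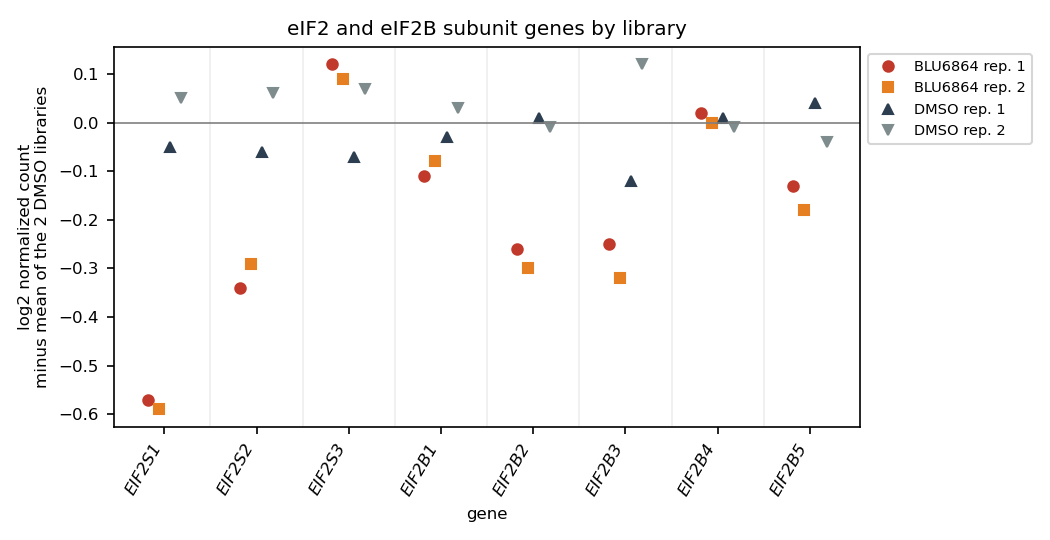
Log2 normalized count of the eIF2 and eIF2B subunit genes in each library, minus the mean of the 2 DMSO libraries for that gene; each symbol is 1 library. EIF2S1 is the gene with the widest gap, while the 4 symbols of EIF2B4 lie together at 0.

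The 14 eIF3 genes, which encode the largest initiation factor, did not move together. Of the 13 tested, 4 (30.8%) were lower and 0 higher, where 22.0% of all genes were lower and 20.3% higher, with a median log2 fold change of -0.05 and a range from -0.54 to 0.30. EIF3B, the scaffold of the part of eIF3 that reaches the mRNA entry side, was at 2167 and 1988 normalized counts against 3388 and 2679.8. The treated libraries lay below both controls, and the controls themselves were wide apart. The means were 2077 ± 127 and 3034 ± 500.5 (SD, n = 2), with a log2 fold change of -0.54 ± 0.11 (SE, edgeR adjusted p = 4.1e-04).

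EIF3A, the subunit on which the complex is assembled, was at 5671 and 5128 against 8380.5 and 6523 (log2 fold change -0.46 ± 0.12 SE, edgeR adjusted p = 0.00387). It shared with EIF3B a DMSO replicate 1 above DMSO replicate 2, by 0.36 and 0.34 on the log2 scale. EIF3D, which can bind the cap of some mRNAs, was at 5003 and 4937 against 6372 and 6123. The libraries of each group nearly coincided, at a log2 fold change of -0.33 ± 0.11 (SE, edgeR adjusted p = 0.0189). EIF3J, a loosely bound subunit that acts in the decoding center, was at 1331 and 1146 against 1579.8 and 1659.9 (log2 fold change -0.38 ± 0.11 SE, edgeR adjusted p = 0.00568).

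All 4 of these calls were lost without BLU6864 replicate 2, at an adjusted p of 0.174 for EIF3A, 0.0552 for EIF3B, 0.287 for EIF3D and 0.321 for EIF3J. Each of these is the highest adjusted p over the 8 other fits for its gene, and the lowest were 9.4e-07, 1.6e-08, 0.00145 and 2.6e-05. EIF3D was also lost without BLU6864 replicate 1 (adjusted p = 0.225). EIF3A and EIF3B kept negative values throughout, from -0.63 to -0.27 and from -0.71 to -0.37 on the log2 scale, the smallest changes being those without DMSO replicate 1.

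EIF3E, a subunit of the octamer core, had the largest positive value of the family and was not called. It was at 19139 and 22302 normalized counts after BLU6864 and at 14154 and 19716 in DMSO. The groups overlapped, since DMSO replicate 2 lay above BLU6864 replicate 1, and the log2 fold change was 0.30 ± 0.14 (SE, edgeR adjusted p = 0.102). EIF3M, another octamer subunit, was at 3927 and 4300.1 against 3021 and 3894, with a log2 fold change of 0.26 ± 0.12 (SE, edgeR adjusted p = 0.0845). For both genes the low library was DMSO replicate 1.

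Without DMSO replicate 2, EIF3E and EIF3M passed as higher (log2 fold change 0.55 and 0.45), and EIF3I and EIF3K did so as well, while without DMSO replicate 1 the values of EIF3E and EIF3M were 0.07 and 0.08. The size of these values thus differed with the control library left out, while the 4 genes stayed positive in each of the 8 other fits. EIF3K was at 3384 and 3466 against 2870.4 and 3161, and its groups did not overlap (log2 fold change 0.19 ± 0.11 SE).

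The subunits EIF3A, EIF3C, EIF3E, EIF3F, EIF3H, EIF3K, EIF3L and EIF3M form the octamer that faces the ribosome. Of these 8, 1 was lower and the median log2 fold change was 0.06. Of the other 5 tested, EIF3B, EIF3D, EIF3G, EIF3I and EIF3J, 3 were lower and the median was -0.33, where 22.0% of all genes were lower. No test was made of the difference between these subunit groups. EIF3F, EIF3G, EIF3H, EIF3I and EIF3L were not called, with log2 fold changes from -0.10 to 0.17.

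EIF3C was at 42.0 and 48.7 normalized counts against 70.5 and 47.1, and its copy EIF3CL at 8.41 and 3.75 against 2.75 and 4.38. The groups overlapped for both. Of the 50-base stretches of the EIF3C transcript, 98.8% also occur in EIF3CL, so reads of the length in the labels would seldom point to either copy alone, and the level and change of EIF3C are uncertain.

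**Figure D4:**
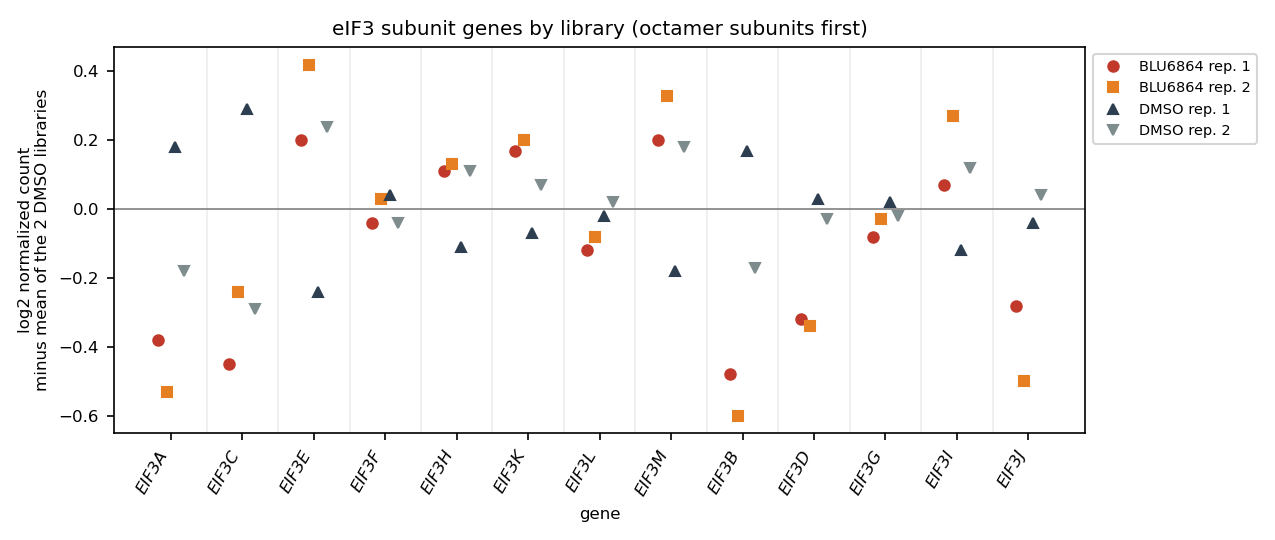
Log2 normalized count of the 13 tested eIF3 genes in each library, minus the mean of the 2 DMSO libraries for that gene, with the octamer subunits on the left; each symbol is 1 library. EIF3A, EIF3B, EIF3D and EIF3J have both BLU6864 symbols below both DMSO symbols, and EIF3G and EIF3L do so by less. For EIF3E and EIF3M, and also for EIF3H, EIF3I and EIF3K, the lowest symbol is DMSO replicate 1.

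Of the 11 tested eIF4 genes, 3 (27.3%) fell and 0 rose, the share that fell being near the 22.0% of all genes, with a median log2 fold change of -0.22 and a range from -0.49 to 0.26. The 3 were the cap-binding protein EIF4E and the scaffolds EIF4G1 and EIF4G3, which join the cap to eIF3. EIF4E was at 933 and 927 normalized counts after BLU6864 and at 1214 and 1234 in DMSO. The replicates of each group nearly coincided, at 930.1 ± 4.06 and 1224 ± 14.6 (SD, n = 2). The log2 fold change was -0.39 ± 0.11 (SE), 1.31-fold lower, with an edgeR adjusted p of 0.00427, although 20.9% of the 50-base stretches of its transcript also occur in the pseudogene EIF4EP2.

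EIF4G1 was at 7722 and 8166 against 12544 and 9839 (log2 fold change -0.49 ± 0.13 SE, edgeR adjusted p = 0.00282). EIF4G3 was at 2339 and 2128 against 3232 and 2780.4 (log2 fold change -0.43 ± 0.11 SE, edgeR adjusted p = 0.00270). For both scaffolds the treated libraries lay below both controls and DMSO replicate 1 was the highest library. Without BLU6864 replicate 2 all 3 calls were lost, at an adjusted p of 0.137 for EIF4E, 0.0537 for EIF4G1 and 0.185 for EIF4G3, and without BLU6864 replicate 1 those of EIF4E (adjusted p = 0.102) and EIF4G1 (adjusted p = 0.111). Over the 8 other fits the adjusted p ranged from 1.3e-04 to 0.137, from 1.0e-06 to 0.111 and from 3.9e-06 to 0.185. Without DMSO replicate 1 the log2 fold change of EIF4G1 was -0.31, and without DMSO replicate 2 it was -0.66.

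EIF4G2 (DAP5), a scaffold that does not bind eIF4E, was at 25226 and 24800.1 against 29526 and 28953. The groups were clearly apart, yet the log2 fold change of -0.22 ± 0.13 (SE) missed the threshold (edgeR adjusted p = 0.172). EIF4H, which like EIF4B assists the helicase, was at 4135 and 3749 against 5084 and 4195 (log2 fold change -0.23 ± 0.12 SE, edgeR adjusted p = 0.109) and passed as lower without DMSO replicate 2 (adjusted p = 0.00104, in a range from 0.00104 to 0.626 over the 8 other fits).

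The helicases EIF4A1 and EIF4A2, close relatives that fill the same place in eIF4F, had values of opposite sign and neither was called. EIF4A1 was at 18864 and 19259.9 against 21211 and 23201 (log2 fold change -0.22 ± 0.13 SE, edgeR adjusted p = 0.176). EIF4A2 was at 10956 and 11456 against 7999 and 10783 (log2 fold change 0.26 ± 0.13 SE, edgeR adjusted p = 0.115). The count of EIF4A2 per count of EIF4A1 was 0.581 and 0.595 after BLU6864 and 0.377 and 0.465 in DMSO. The treated libraries were alike and above both controls, and the controls differed from each other by nearly as much as the nearer one from the treated libraries. EIF4A2 passed as higher without DMSO replicate 2 (log2 fold change 0.49) and had a value of 0.05 without DMSO replicate 1. All 50-base stretches of the EIF4A1 transcript also occur in other annotated transcripts, 91.7% of them in 1 other annotated gene.

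EIF4A3, a relative of the helicases that acts in the exon junction complex, EIF4B, and the cap-binding relatives EIF4E2 and EIF4E3 were not called, with log2 fold changes from -0.15 to 0.11. EIF4E1B, which in vertebrates is known from oocytes, had 0 reads in each library.

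EIF4EBP1, the best known repressor of EIF4E, fell together with its target. It was at 1696 and 1753 normalized counts after BLU6864 and at 2402 and 2451 in DMSO. The gap between the groups was many times the spread within them, 1725 ± 40.7 against 2426 ± 34.9 (SD, n = 2). The log2 fold change was -0.49 ± 0.10 (SE), 1.40-fold lower, with an edgeR adjusted p of 4.1e-04, and the call held under the 8 other fits, where the log2 fold change ranged from -0.52 to -0.46 and the adjusted p from 2.2e-07 to 0.0470. No 50-base stretch of its transcript occurs in another annotated gene.

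EIF4EBP2, the second repressor, was at 4658 and 4430.3 against 5006 and 4467. The groups overlapped, with a log2 fold change of -0.06 ± 0.11 (SE, edgeR adjusted p = 0.712). EIF4EBP3 had 0 and 2 reads in the BLU6864 libraries and 0 and 1 in the DMSO libraries and was not tested.

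Because EIF4E and EIF4EBP1 both fell, their balance moved little. The count of EIF4EBP1 per count of EIF4E was 1.82 and 1.89 after BLU6864 and 1.98 and 1.99 in DMSO. The count of EIF4EBP2 per count of EIF4E was 4.99 and 4.78 against 4.12 and 3.62. The first ratio was slightly lower and the second higher in both treated libraries. These are mRNA counts without a length correction, and the smallest two-sided p that an exact permutation of 2 against 2 libraries allows is 0.333, so the ratios were not tested.

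EIF4ENIF1 (4E-T), which carries EIF4E into the nucleus and holds it on silenced mRNAs, was the only initiation factor gene of the 50 tested called higher. It was at 823 and 785 normalized counts after BLU6864 and at 621 and 535 in DMSO, or 804 ± 26.7 against 578 ± 61.1 (SD, n = 2). Both treated libraries lay above both controls, with a log2 fold change of 0.48 ± 0.12 (SE), 1.39-fold higher, and an edgeR adjusted p of 0.00178. Without BLU6864 replicate 1 the adjusted p was 0.0524, within a range from 1.2e-06 to 0.0524 over the 8 other fits. The count of EIF4ENIF1 per count of EIF4E was 0.882 and 0.846 after BLU6864 and 0.512 and 0.434 in DMSO.

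**Figure D5:**
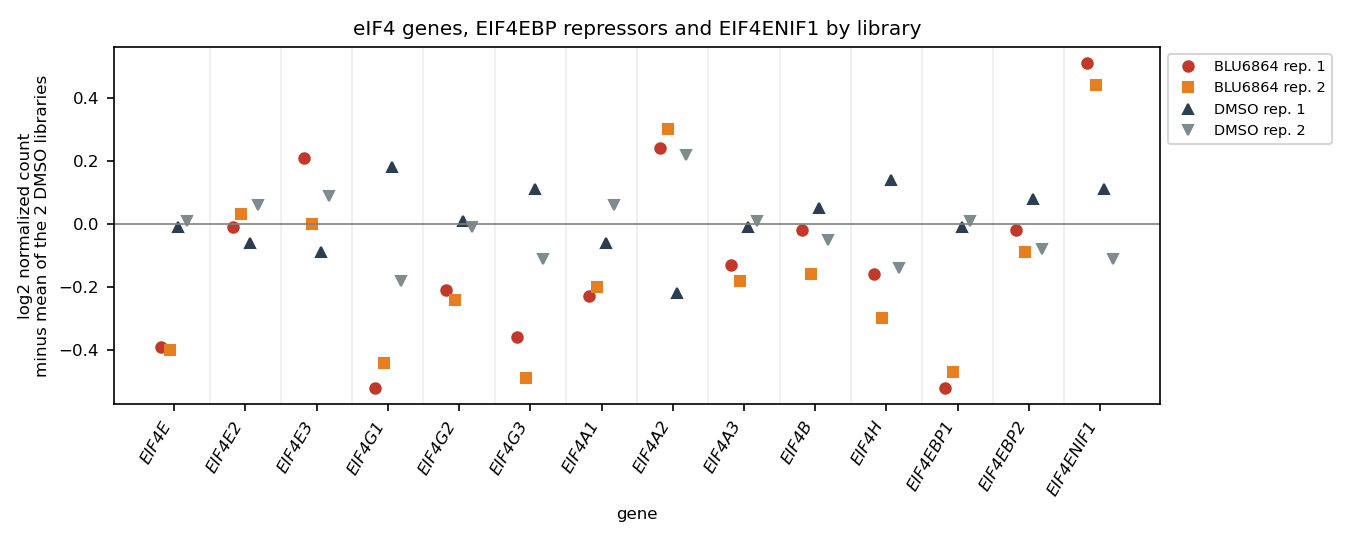
Log2 normalized count of the 11 tested eIF4 genes, EIF4EBP1, EIF4EBP2 and EIF4ENIF1 in each library, minus the mean of the 2 DMSO libraries for that gene; each symbol is 1 library. EIF4E and EIF4EBP1 have tight and separate groups, EIF4A2 has DMSO replicate 1 far below the other libraries, and EIF4ENIF1 is the gene whose BLU6864 symbols lie highest.

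EIF4E, EIF4G1 and EIF5A2 also held the letters CACGTG, the E-box that MYC and related factors bind, at 2 places each within the 250 bases before to 50 bases after an annotated start. The motif reads the same on both strands and does not overlap the pyrimidine starts. The stretch between and around the E-boxes is shown for the cap-binding protein and its scaffold, the eIF4F genes that fell and hold 2 such motifs, with CACGTG in capitals:
EIF4E, chr4:98929173-98929383, minus strand: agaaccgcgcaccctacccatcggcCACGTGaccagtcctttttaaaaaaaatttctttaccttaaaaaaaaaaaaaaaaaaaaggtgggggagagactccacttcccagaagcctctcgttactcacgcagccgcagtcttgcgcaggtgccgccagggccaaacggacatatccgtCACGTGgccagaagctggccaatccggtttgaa
EIF4G1, chr3:184314435-184314571, plus strand: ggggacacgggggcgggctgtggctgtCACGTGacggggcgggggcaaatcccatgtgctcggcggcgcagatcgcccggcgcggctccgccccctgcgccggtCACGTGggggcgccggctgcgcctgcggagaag

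CACGTG occurred in 11 of the 45 initiation factor genes with a promoter entry (24.4%), against 11.0% of the 14223 genes of the table with an entry, each counted by any of its promoters. Here too chromosome 8 was left out for the initiation factor genes and not for all genes. Of the 10 of these that were tested, 3 were lower (EIF4E, EIF4G1 and EIF5A2) and 0 higher, with a median log2 fold change of -0.19. Of the 1210 tested genes with this motif in the whole table, 24.1% were lower and 19.2% higher. Of the 32 initiation factor genes without it, 11 (34.4%) were lower and 1 higher, with a median of -0.15. Among all 8407 tested genes without it, 21.6% were lower and 20.3% higher. The fold changes thus hardly differed by this motif, and a match in the letters does not show binding.

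Of the 3 tested genes of eIF1 and eIF1A, which select the start codon, 1 fell, beside 22.0% of all genes. EIF1AX, the eIF1A gene on the X chromosome, was at 1859.7 and 1772 normalized counts against 2361 and 2623 (log2 fold change -0.45 ± 0.11 SE, edgeR adjusted p = 0.00111). The groups were apart by more than their spread, and leaving out BLU6864 replicate 2 ended the call (adjusted p = 0.104, in a range from 5.5e-08 to 0.104 over the 8 other fits). EIF1AD, which encodes a protein with an eIF1A-like domain that acts in ribosome assembly, was at 493 and 436 against 748 and 734. The treated libraries were far below the controls, 465 ± 39.8 against 741 ± 9.60 (SD, n = 2), with a log2 fold change of -0.67 ± 0.12 (SE), 1.59-fold lower (edgeR adjusted p = 4.7e-05).

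EIF1, which guards the choice of start codon, was at 13166 and 13711 against 12717 and 13439. Its groups overlapped, with a log2 fold change of 0.04 ± 0.12 (SE), and EIF1B, its close relative, was not called either (edgeR adjusted p = 0.984).

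The largest change of all 50 genes was that of EIF5B, the GTPase that joins the large ribosomal subunit at the end of initiation. It was at 1907 and 1569.8 normalized counts after BLU6864 and at 3191 and 2640.4 in DMSO. Both treated libraries lay below both controls, 1738 ± 238 against 2916 ± 389 (SD, n = 2). The log2 fold change was -0.74 ± 0.12 (SE), 1.67-fold lower, with an edgeR adjusted p of 1.0e-05. Over the 8 other fits it ranged from -0.88 to -0.61 and the adjusted p from 3.7e-12 to 0.0107.

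The other eIF5 and eIF6 genes changed less, and in all 3 of 6 fell, beside 22.0% of all genes, with a median log2 fold change of -0.24. EIF5A2, a paralog of EIF5A (a hypusine-bearing factor that helps elongation), was at 1493 and 1509 against 1679.6 and 2218 (log2 fold change -0.37 ± 0.12 SE, edgeR adjusted p = 0.0124). DMSO replicate 2 was far above the other 3 libraries. Without it the log2 fold change was -0.16 (adjusted p = 0.115), and without BLU6864 replicate 1 or 2 the adjusted p was 0.133 or 0.146, within a range from 4.7e-09 to 0.146 over the 8 other fits.

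EIF5AL1, an intronless copy of EIF5A, was at 1112 and 1042 against 1321 and 1269 (log2 fold change -0.26 ± 0.11 SE, edgeR adjusted p = 0.0482). It lay at the edge of the threshold and was lost in 4 of the 8 other fits, with DESeq2 (adjusted p = 0.0883), with no filter on low counts (adjusted p = 0.0563) and on leaving out BLU6864 replicate 1 (adjusted p = 0.221) or 2 (adjusted p = 0.465), within a range from 0.00622 to 0.465. Of the 50-base stretches of the EIF5AL1 transcript, 11.6% also occur in EIF5A. Of those of the EIF5A transcript, 36.8% also occur in EIF5AL1, so reads of the pair may be shared.

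EIF5, which triggers GTP hydrolysis by eIF2, was at 8941 and 8316 against 8715 and 9194. Its groups overlapped (log2 fold change -0.05 ± 0.12 SE). EIF6, which keeps the large subunit apart from the small one, had a log2 fold change of -0.21 ± 0.10 (SE, edgeR adjusted p = 0.108) and passed as lower without DMSO replicate 2 (adjusted p = 0.0155, in a range from 0.0155 to 0.510 over the 8 other fits).

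Genes that act on these factors moved in both directions. Of 19 tested genes of the mTORC1 pathway, 9 rose and 1 fell, where 20.3% of all genes were higher and 22.0% lower, and the median log2 fold change was 0.26. Those that rose included the inhibitors and stress sensors DEPTOR (1.75 ± 0.12 SE, edgeR adjusted p = 3.1e-12), SESN1 (0.95 ± 0.11 SE, adjusted p = 1.9e-07) and DDIT4 (0.80 ± 0.13 SE, adjusted p = 1.7e-05), and also the activator RHEB (0.36 ± 0.12 SE, adjusted p = 0.0159). The gene that fell was RPTOR, the subunit that recruits mTORC1 substrates such as EIF4EBP1 (-0.34 ± 0.12 SE, adjusted p = 0.0186). The list thus held activators and inhibitors that changed the same way.

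Of 5 tested MNK and RSK kinase genes, which act on EIF4E and EIF4B downstream of ERK, 3 fell and 1 rose, beside 22.0% and 20.3% of all genes, with a median log2 fold change of -0.29. RPS6KA2 (-1.01 ± 0.11 SE, edgeR adjusted p = 1.7e-08), RPS6KA3 (-0.73 ± 0.10 SE, adjusted p = 2.2e-06) and MKNK2 (-0.29 ± 0.11 SE, adjusted p = 0.0366) were lower. MKNK1, which like MKNK2 encodes a MNK kinase, was higher (0.40 ± 0.11 SE, adjusted p = 0.00470).

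Of 18 tested cap and poly(A) regulators, 3 rose (16.7%) and 6 fell (33.3%), beside 20.3% and 22.0% of all genes, with a median log2 fold change of -0.09. PDCD4, an inhibitor of EIF4A, rose (0.63 ± 0.11 SE, edgeR adjusted p = 6.7e-05), as did PAIP2 (0.35 ± 0.12 SE, adjusted p = 0.0187), a repressor of poly(A)-binding protein, and PAIP2B. The nuclear cap-binding genes NCBP2 (-0.61 ± 0.11 SE, adjusted p = 5.8e-05) and NCBP1 (-0.46 ± 0.11 SE, adjusted p = 9.4e-04) fell, and so did LARP1 (-0.36 ± 0.11 SE, adjusted p = 0.0119), whose protein binds TOP mRNAs.

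Of 10 tested genes of the response to eIF2 phosphorylation, 3 rose and 3 fell, 30.0% each way beside 20.3% and 22.0% of all genes, with a median log2 fold change of -0.17. DDIT3, a transcription factor of prolonged stress, rose (1.04 ± 0.15 SE, edgeR adjusted p = 1.9e-06) and TRIB3, a target of ATF4, fell (-1.04 ± 0.11 SE, adjusted p = 1.3e-08). NCK1 rose by nearly as much as DDIT3 (1.03 ± 0.12 SE, edgeR adjusted p = 4.9e-08). ATF4, the central transcription factor of that response, was not called (-0.26 ± 0.12 SE, adjusted p = 0.0725).

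Of 12 tested elongation and termination factor genes, 2 rose and 2 fell, 16.7% each way, which is below the 20.3% and 22.0% of all genes. ABCE1, which splits ribosomes after termination, fell (-0.89 ± 0.11 SE, edgeR adjusted p = 1.3e-07), and ETF1, the release factor that reads stop codons, rose (0.64 ± 0.11 SE, adjusted p = 3.4e-05).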

How the data were processed

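The deposited table holds whole-number counts of reads per gene for the 4 libraries and the authors' normalized signal, the counts divided by size factors; per-library values and means above are that signal. The submitters' processing notes name STAR 2.3, hg19 and DESeq2, and the labels give TruSeq libraries with 50 bp single-end reads. In the study's methods the reads are longer and paired-end, and STAR is a newer version, so the read length behind the shared stretches is uncertain. How reads were counted (tool, annotation, strand) is not given in the sources used here, so overlapping genes can share reads. Called genes whose intervals overlap other genes include EIF5B, EIF1AD, EIF2S1, EIF3B and EIF4ENIF1. Columns with the authors' fold changes, errors and p-values were not used.

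The counts went through filterByExpr, TMM scaling and the two-sided quasi-likelihood test of edgeR 4.0.16 (R 4.3.3), with group as the term, across all genes, and p-values were adjusted by Benjamini-Hochberg over the 12696 genes tested. The SE given with a log2 fold change is not an edgeR output. It is the absolute log2 fold change divided by the square root of the F statistic of that test. The script was tested on simulated data. Other fits used DESeq2 1.42.0, its size factors in edgeR, no filter, a replicate block, and each library left out in turn. Members, lists and tests were chosen with earlier results of these data known. Values in every library are given for each called gene, for all measured eIF2, eIF2B and EIF4EBP genes and for the uncalled gene with most reads in each other class. EIF3M, EIF3K, EIF4A1, EIF4A2, EIF4H and EIF3C with its copy were added after their values were seen. Shared 50-base stretches come from GENCODE v44 canonical transcripts, and promoters from RefSeq, without chromosome 8 for initiation factor genes. Some markers on the lists are not reported here.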

Additional observations from a re-analysis of the deposited data

How the results depend on the processing

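With a log2 fold change beyond 0.5 and an unadjusted p below 0.01 in place of the adjusted p, 1397 genes were called higher and 1584 lower, and among initiation factor genes 0 higher and 4 lower; this changes the fold and the p together. With the replicate block, 4 initiation factor genes were higher (EIF3E, EIF3M and EIF4A2 beside EIF4ENIF1) and 17 lower. The replicate numbers were not taken as pairs, since there are only 2 and no label ties them; the replicate differences of the groups correlated at r = 0.142 across 12696 genes. Leaving out each library in turn gave 1250 to 3311 genes higher and 1490 to 3621 lower, with 0 to 6 initiation factor genes higher and 4 to 20 lower. The fewest lower calls (4) came without BLU6864 replicate 2 and the most (20) without DMSO replicate 2, and a lone library was then assumed to vary like the other group. Those fits gave class medians from -0.3772 to -0.2512 for eIF2, from -0.1965 to -0.1537 for eIF4 and from -0.3083 to -0.2423 for the EIF4EBP genes. No call changed direction in any fit. Of the 32 uncalled genes, 22 were called in none of the 8 other fits. With 2 libraries a group, fold changes near the errors of 0.10 to 0.14 given for most genes could not be called.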
